A study of Mus musculus with 12 samples.

Results

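The genes of cholesterol and fatty acid synthesis were followed across 4 sources of mouse brain endothelial RNA. They comprise the enzymes that build sterols from acetyl-CoA, the enzymes that make, lengthen and desaturate fatty acids, and the proteins that switch both pathways on and off. Of 35 listed genes, 33 were found among the 15204 genes of the deposited table, and Idi1 and Fdps were left out. The list named the genes by function, not by their values. The 33 consist of 5 sterol regulators, 5 enzymes of the mevalonate arm, 11 enzymes that lead from squalene synthesis to cholesterol, the sterol carrier gene Stard4, 4 genes of acetyl-CoA supply and fatty acid synthesis, 6 elongases and desaturases, and the phosphatidate phosphatase gene Lpin1.

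As background, SREBP transcription factors, encoded by Srebf1 and Srebf2, drive most of these genes. When membranes hold little sterol, the escort protein Scap carries the SREBP precursor out of the endoplasmic reticulum to the proteases that release its active part, and when sterol is plentiful the Insig proteins hold Scap back. Activity is therefore set largely by protein processing, and brain tissue makes its own cholesterol because lipoprotein cholesterol hardly crosses the blood-brain barrier.

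Total RNA was hybridised to 12 arrays, 3 for each source. Non-cultured cells were microvascular endothelial cells of mouse brain, selected with beads for PECAM1, an endothelial surface protein. Single-cultured cells were brain endothelial cells grown on filters for 5 days, and co-cultured cells were grown in the same way over glial cultures aged 3 weeks that shared the medium without touching them. The fourth source was b.End5, a transformed mouse brain endothelioma line. The bead selection is given for the non-cultured cells alone, so bead selection and culture cannot be told apart in comparisons with that source. Replicates are not described as separate preparations, so the tests cover only the spread between these arrays.

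All values are RMA expression values on a log2 scale, on which a difference of 1 is a 2-fold difference. Array medians lay between 7.21 and 7.40, and the level of control probe sets without a mouse target, which bounds what can be measured, between 4.01 and 4.46. The endothelial identity of the sources was checked with 8 markers, all above that level in every source, with the log2 of their summed linear level at 16.02 to 16.12 in non-cultured, 15.29 to 15.61 in single-cultured, 15.28 to 15.51 in co-cultured and 15.59 to 15.61 in b.End5 arrays. By the test given below, 3, 2 and 1 of the 8 were called lower in single-cultured, co-cultured and b.End5 than in non-cultured cells. Of all genes 5.82%, 6.20% and 9.06% were. Flt1 was lower in each, with means of 11.18, 11.03 and 10.59 against 12.62. Among the b.End5 arrays the one labelled replicate 2 was unlike the others, with 1073 of all genes more than 1 log2 unit from the mean of the other b.End5 arrays, and 3 of the 33 genes among them. Counts for b.End5 are given with and without it. In such bulk samples, a lower share of cells that express a gene and less RNA per cell cannot be told apart.

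The promoters of 27 of the 33 genes were in the RefSeq table (mouse assembly GRCm38.p6), read along the gene's strand over the 250 bases before the start. A sterol regulatory element core, TCACNCCAC, was found on either strand in 1 of them, Hmgcs1, and in 1.22% of the 27025 genes with a promoter. The CCAAT box (CCAAT or, on the other strand, ATTGG), the site of NF-Y, a factor that works with SREBP at sterol genes, was found in 20 of 27, against 37.49% of all genes. The GC box, GGGCGG on either strand, was found in 21 of 27, against 35.36%. A CCAAT box lay in the promoters of 6 of the 9 genes with a promoter that were called higher in some source than in non-cultured cells, and of 14 of the 18 others. Matches are letters in a window and do not show binding. Only these exact letters in 250 bases were searched, so a missing match does not show that a site is absent. Windows of 120 bases are shown for Hmgcs1, which holds the only match to the core, and for 4 genes called higher below, whose CCAAT boxes differ in number and strand. Capitals mark the core and the CCAAT boxes, and in Fasn 2 boxes on opposite strands overlap. The windows are chr13:119690154-119690273 (plus strand, 197 to 78 bases before the start) for Hmgcs1, and, on the minus strand in the 120 bases before the start, chr5:4104698-4104817 for Cyp51, chr8:64733579-64733698 for Msmo1, chr1:169969206-169969325 for Hsd17b7 and chr11:120824548-120824667 for Fasn.
Hmgcs1: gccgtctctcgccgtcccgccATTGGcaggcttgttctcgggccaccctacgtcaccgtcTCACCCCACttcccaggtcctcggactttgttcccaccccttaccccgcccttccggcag
Cyp51: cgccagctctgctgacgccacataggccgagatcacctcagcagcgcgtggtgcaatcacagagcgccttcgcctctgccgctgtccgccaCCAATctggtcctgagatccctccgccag
Msmo1: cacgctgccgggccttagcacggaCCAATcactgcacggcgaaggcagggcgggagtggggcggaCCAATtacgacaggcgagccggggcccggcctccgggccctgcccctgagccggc
Hsd17b7: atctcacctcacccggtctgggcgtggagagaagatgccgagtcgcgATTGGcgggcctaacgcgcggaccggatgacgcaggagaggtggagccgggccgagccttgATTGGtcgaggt
Fasn: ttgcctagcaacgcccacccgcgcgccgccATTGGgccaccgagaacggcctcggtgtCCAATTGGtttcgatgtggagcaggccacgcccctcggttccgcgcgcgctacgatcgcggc

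After culture, some late sterol enzymes and 2 fatty acid-modifying enzymes were higher. Between single-cultured and non-cultured cells, Fdft1, Sqle, Cyp51, Msmo1, Elovl6 and Fads2 were higher and no gene of the 33 was lower. A gene was called at a limma p-value under 0.05 after Benjamini-Hochberg adjustment across the 15204 genes, with at least a 2-fold difference. Genes given as higher or lower by less than 2-fold passed the adjusted p alone. The 6 calls are 18.2% of the 33 genes, where 7.18% of all genes were called higher and 5.82% lower. Without the 2-fold minimum, 12 of the 33 (36.4%) passed, 11 of them higher and Acss2 lower, against 28.2% of all genes. The median difference over the 33 genes was 0.26, against -0.002 over all genes. The count fell to 4 without single-cultured replicate 2, which ended the calls of Cyp51 (0.97) and Elovl6 (0.96), and rose to 7 without single-cultured replicate 3, which added Fasn (1.05). Replicate 2 stood apart from the other single-cultured arrays, with 336 of all genes more than 1 log2 unit from their mean, against 122 and 99 for the others. Its 3′ to 5′ log2 difference of the Gapdh control probe sets, a sign of RNA quality, was 3.97, against 2.25 and 1.94, and its level without a target (4.46) was the highest of the 12 arrays.

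With glia in the well the count against non-cultured cells was the same, with Fasn called and Cyp51 under 2-fold. Fdft1, Sqle, Msmo1, Fasn, Elovl6 and Fads2 were higher in co-cultured than in non-cultured cells and none was lower. These are 18.2% of the 33 genes, against 9.10% of all genes called higher and 6.20% lower. Without the minimum 12 passed (36.4%), 9 higher and 3 lower (Pmvk, Stard4 and Acss2), against 34.4% of all genes, so that share was near the background. The median over the 33 genes was -0.004, against -0.037 over all genes. The comparisons with non-cultured cells share the same 3 non-cultured arrays, so their overlap is no separate evidence.

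The endothelioma line had the most calls. In b.End5, 12 genes were higher than in non-cultured cells (Acat2, Fdft1, Sqle, Lss, Cyp51, Msmo1, Nsdhl, Hsd17b7, Fasn, Elovl6, Fads1 and Fads2) and none was lower. They are 36.4% of the 33 genes, against 9.10% of all genes higher and 9.06% lower. Without the minimum 19 passed (57.6%), 18 higher and 1 lower, against 38.0% of all genes. The median was 0.73 over the 33 genes and 0.08 over all genes. Without b.End5 replicate 2 the count was 14, with Tm7sf2 (1.00) and Acaca (1.11) added, and without b.End5 replicate 3 or non-cultured replicate 2 it was 10.

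**Figure D1:**
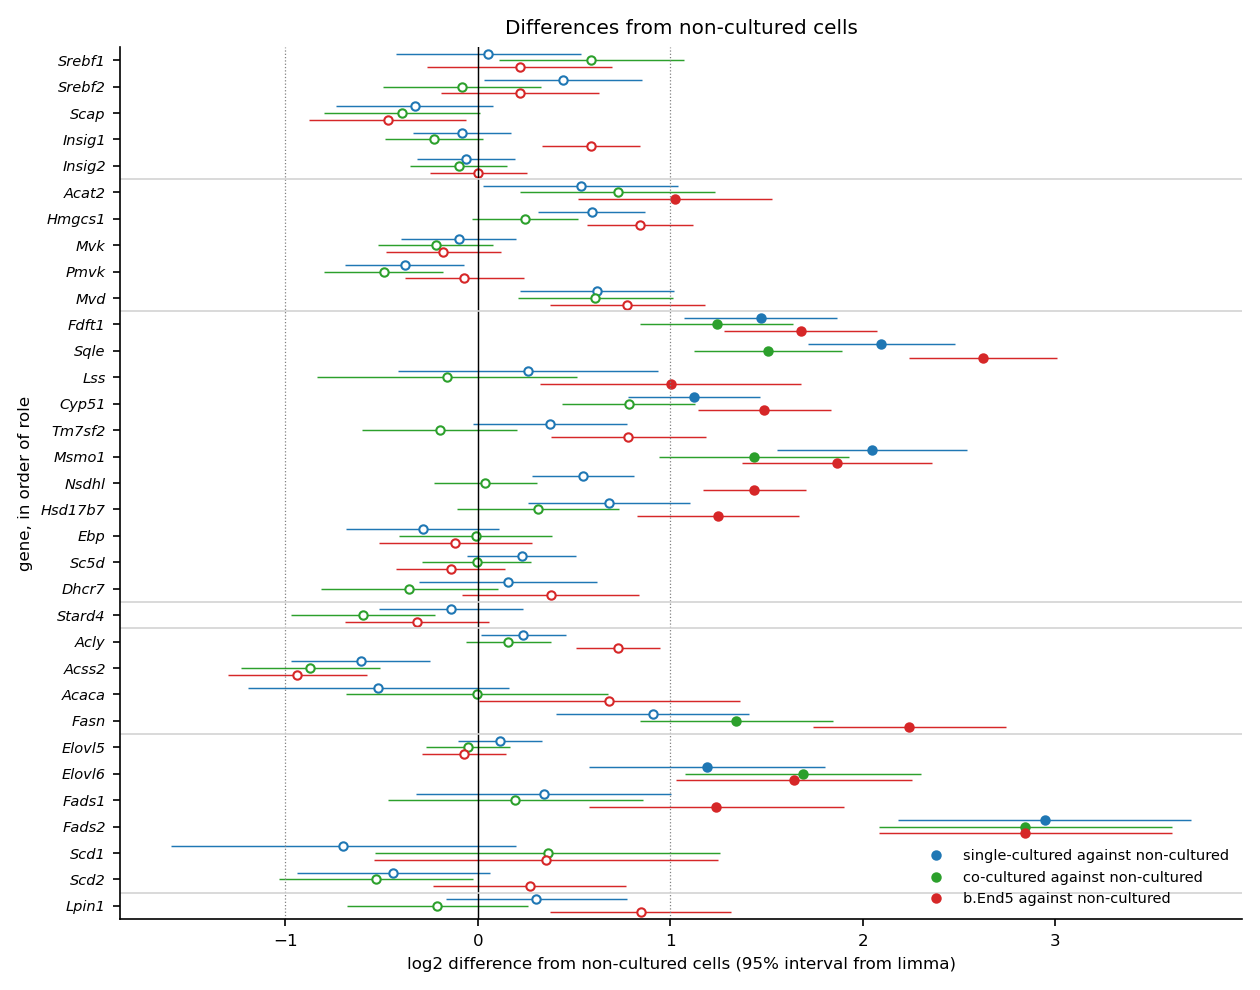
Log2 difference of each of the 33 genes from non-cultured cells (x axis) by gene in order of role (y axis), for single-cultured, co-cultured and b.End5 cells, with 3 arrays in each source. Points are limma estimates with their 95% intervals, filled points are called, and dotted lines mark a 2-fold difference; the filled points all lie to the right, from 1.00 for Lss in b.End5 to 2.94 for Fads2 in single-cultured cells.

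Of the regulators, the transcripts of the SREBP factors and of their escort did not pass in any of the 6 comparisons. Srebf1 lay at 8.52, 8.74 and 8.66 on the non-cultured arrays, 8.48, 9.19 and 8.42 on the single-cultured, 8.98, 9.42 and 9.29 on the co-cultured and 9.15, 8.91 and 8.52 on the b.End5 arrays. Its co-cultured arrays all lay above the non-cultured ones, yet the difference of 0.59 (SE 0.22) had an adjusted p of 0.058. Srebf2 was at 8.95, 8.42 and 8.19 in non-cultured cells and at 9.01, 8.86 and 9.01 after single culture, and these arrays overlapped (0.44, SE 0.19, adjusted p = 0.105). Scap was lower on average in all 3 other sources than in non-cultured cells, by 0.33 to 0.47, with adjusted p between 0.0684 and 0.23. Insig1, both a brake on the pathway and one of its classical targets, was at 11.30, 11.32 and 11.64 in non-cultured cells and at 11.99, 12.04 and 11.99 in b.End5. The b.End5 arrays lay above those of every other source, by 0.59 over non-cultured (SE 0.12, adjusted p = 0.00171), 0.67 over single-cultured and 0.82 over co-cultured cells, each under 2-fold. Insig1 did not pass in single-cultured (-0.08) or co-cultured cells (-0.23) against non-cultured ones. On the brighter of its probe sets, Insig2 had differences between -0.10 and 0.10 in all 6 comparisons. Its other probe set was not tested by itself, and lay at 8.81, 8.59 and 8.75 in non-cultured and 8.28, 8.60 and 8.49 in b.End5 cells.

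In the mevalonate arm, which turns acetyl-CoA into the isoprenoid building block, only Acat2 reached a call. Acat2, the thiolase that joins acetyl-CoA units, lay at 11.16, 10.83 and 11.36 in non-cultured cells, 11.59, 11.81 and 11.55 in single-cultured, 12.01, 11.99 and 11.53 in co-cultured and 12.45, 11.59 and 12.38 in b.End5. The arrays of all 3 other sources lay above the non-cultured ones. Its b.End5 difference of 1.02 (SE 0.23, adjusted p = 0.00405) was near the 2-fold minimum and fell under it without non-cultured replicate 2 (0.88), b.End5 replicate 1 (0.87) or b.End5 replicate 3 (0.90), and with each other scaling (0.89 to 0.94). Hmgcs1, which makes HMG-CoA and whose promoter holds the sterol element shown above, was higher by less than 2-fold in single-cultured cells (0.59, SE 0.13, adjusted p = 0.00407) and in b.End5 (0.84, adjusted p = 0.000228). Its values were 9.73, 9.70 and 9.91 in non-cultured, 10.27, 10.64 and 10.20 in single-cultured, 10.02, 10.09 and 9.98 in co-cultured and 10.63, 10.58 and 10.66 in b.End5 cells. The co-cultured difference did not pass (0.25, adjusted p = 0.163), although those arrays too lay above the non-cultured ones. Mvd, the mevalonate diphosphate decarboxylase, was higher by 0.62, 0.61 and 0.78 in single-cultured, co-cultured and b.End5 cells (adjusted p = 0.0245, 0.0225 and 0.00527). The kinases of the arm did not rise. Mvk differed from non-cultured cells by -0.22 to -0.10 and did not pass, while Pmvk was lower in co-cultured cells (-0.49, adjusted p = 0.0189).

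The enzymes that form and oxidise squalene were called in all 3 other sources. Sqle, the squalene epoxidase and a second control point of the pathway, lay at 7.60, 7.49 and 7.68 on the non-cultured arrays. It was at 9.61, 9.99 and 9.45 in single-cultured, 9.19, 9.20 and 8.90 in co-cultured and 10.45, 9.90 and 10.29 in b.End5 cells. No array of these 3 sources came within 1 log2 unit of the non-cultured ones. The differences were 2.10 (SE 0.17, adjusted p = 3.84e-06), 1.51 (adjusted p = 4.36e-05) and 2.62 (adjusted p = 2.58e-07), which are 4.28-, 2.84- and 6.17-fold. Fdft1, the squalene synthase, lay at 9.04, 8.86 and 8.98 in non-cultured, 10.36, 10.68 and 10.25 in single-cultured, 10.31, 10.10 and 10.19 in co-cultured and 10.66, 11.01 and 10.25 in b.End5 cells. The 9 arrays of the other sources overlapped with each other and all lay above the non-cultured ones. Its differences were 1.47 (SE 0.18, adjusted p = 8.72e-05), 1.24 (adjusted p = 0.000248) and 1.68 (adjusted p = 1.59e-05). Both calls were kept in all 3 comparisons under every alternative tried. Lss, which closes the ring to lanosterol, was at 9.03, 9.01 and 8.94 in non-cultured, 9.05, 9.55 and 9.16 in single-cultured, 9.26, 8.73 and 8.50 in co-cultured and 10.56, 9.18 and 10.24 in b.End5 cells. b.End5 replicate 2 was the low array of its source. The b.End5 call of Lss (1.00, SE 0.31, adjusted p = 0.0233) rested on the threshold. It was lost without any 1 of the non-cultured arrays (0.97 to 1.02, adjusted p = 0.0546 to 0.0638), without b.End5 replicate 1 (0.72) or 3 (0.88), with each other scaling (0.87 to 0.92) and with the spread of the compared sources alone (adjusted p = 0.0525).

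Of the enzymes that trim lanosterol, those called were enzymes of methyl group removal. Cyp51, the lanosterol demethylase, lay at 8.61, 8.48 and 8.69 in non-cultured, 9.44, 10.02 and 9.68 in single-cultured, 9.53, 9.45 and 9.15 in co-cultured and 10.15, 9.95 and 10.14 in b.End5 cells. All 9 arrays lay above the non-cultured ones, by 1.12 (SE 0.16, adjusted p = 0.000232) after single culture, 0.78 after co-culture (adjusted p = 0.00231, under 2-fold) and 1.49 in b.End5 (adjusted p = 1.37e-05). Msmo1, the sterol methyl oxidase, was at 7.63, 7.43 and 7.97 in non-cultured, 9.47, 10.27 and 9.44 in single-cultured, 9.12, 9.07 and 9.14 in co-cultured and 9.45, 9.85 and 9.33 in b.End5 cells. Every array of the other sources again lay above the non-cultured ones, and single-cultured replicate 2 was the highest of all. The differences were 2.05 (SE 0.23, adjusted p = 3.53e-05), 1.43 (adjusted p = 0.000428) and 1.87 (adjusted p = 4.17e-05). The next enzymes of methyl removal, Nsdhl and Hsd17b7, were called in b.End5 and not in the primary cultures. Nsdhl, the sterol decarboxylating dehydrogenase, lay at 8.31, 8.18 and 8.07 in non-cultured, 8.77, 8.58 and 8.85 in single-cultured, 8.24, 8.30 and 8.13 in co-cultured and 9.61, 9.48 and 9.78 in b.End5 cells. Its co-cultured arrays overlapped the non-cultured ones (0.04, adjusted p = 0.841), while single culture gave 0.55 (adjusted p = 0.00523) and b.End5 1.44 (SE 0.12, adjusted p = 2.11e-06). Hsd17b7, the sterol ketone reductase, lay at 7.33, 6.85 and 6.99 in non-cultured, 7.58, 7.85 and 7.79 in single-cultured, 7.46, 7.35 and 7.30 in co-cultured and 8.44, 7.86 and 8.63 in b.End5 cells. The b.End5 difference was 1.25 (SE 0.19, adjusted p = 0.000273), the single-cultured one 0.68 (adjusted p = 0.0192) and the co-cultured one 0.31 (adjusted p = 0.243).

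The steps after methyl removal did not pass in any comparison with non-cultured cells. Ebp, the sterol isomerase, differed by -0.29 to -0.01, Sc5d, the sterol desaturase, by -0.14 to 0.23, and Dhcr7, which makes cholesterol in the last step, by -0.36 to 0.38. The reductase Tm7sf2 was higher in b.End5 alone of the 3 sources, by 0.78 (SE 0.18, adjusted p = 0.00513), or by 1.00 without b.End5 replicate 2. Stard4, a carrier of cholesterol between membranes, was lower in co-cultured cells (-0.60, adjusted p = 0.0182). Over the 16 sterol enzymes, 4, 3 and 8 were called higher in single-cultured, co-cultured and b.End5 cells, with median differences of 0.54, 0.14 and 0.92. These are 25%, 18.8% and 50% of them, against 7.18%, 9.10% and 9.10% of all genes, and of the 8 in b.End5 Acat2 and Lss lost their call with each other scaling. None was called lower, though Pmvk passed the test under 2-fold.

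**Figure D2:**
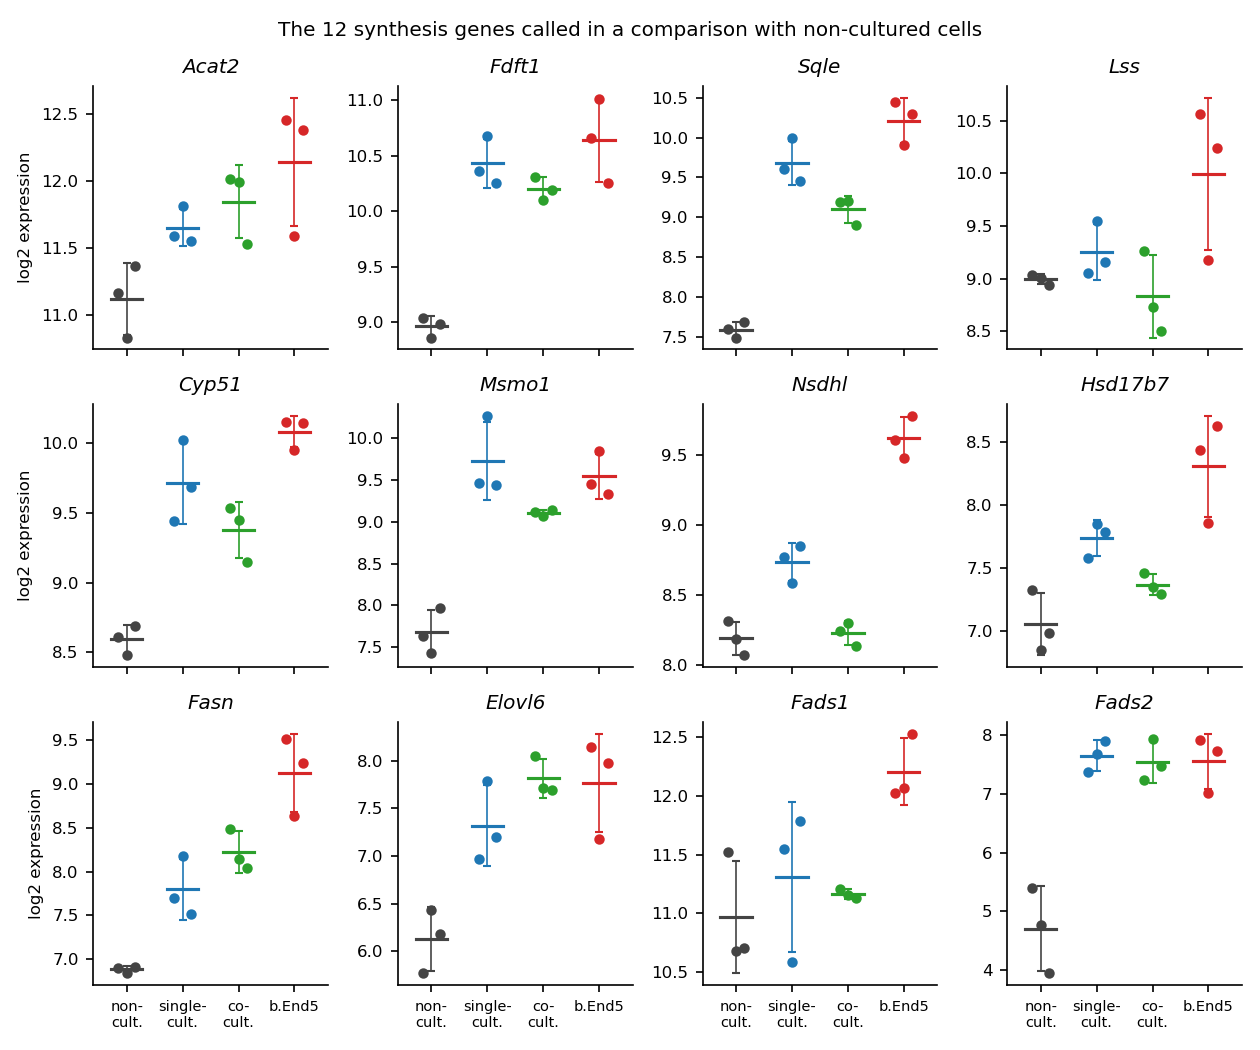
Log2 expression (y axis, a range of its own for each gene) of the 12 genes called in a comparison with non-cultured cells, by source (x axis, 3 arrays each). Points are arrays, thick lines means and thin bars SD; for Sqle the non-cultured arrays lie at 7.49 to 7.68 and all others at 8.90 or above, while for Fads1 the arrays of both cultures overlap the non-cultured ones.

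Among the genes that supply and use acetyl-CoA for fatty acids, Fasn was the one called. Fasn, the fatty acid synthase, lay at 6.90, 6.84 and 6.91 in non-cultured, 7.70, 8.18 and 7.51 in single-cultured, 8.49, 8.14 and 8.04 in co-cultured and 9.51, 8.63 and 9.24 in b.End5 cells. The 3 sources all lay above the non-cultured arrays, and single-cultured and co-cultured arrays overlapped. Fasn was higher by 0.91 in single-cultured cells (SE 0.23, adjusted p = 0.0108, under 2-fold), 1.34 in co-cultured cells (adjusted p = 0.000758) and 2.24 in b.End5 (adjusted p = 1e-05), a 4.73-fold difference. Acly, which cleaves citrate to acetyl-CoA, was higher by 0.73 in b.End5 (SE 0.10, adjusted p = 0.000122) and did not pass in the cultures (0.24 and 0.16). Acaca, the acetyl-CoA carboxylase that feeds Fasn, lay at 8.94, 9.21 and 8.96 in non-cultured, 8.10, 8.86 and 8.61 in single-cultured, 9.06, 9.07 and 8.97 in co-cultured and 10.29, 8.86 and 10.01 in b.End5 cells. Against non-cultured cells none of its differences passed, but b.End5 replicate 2 lay more than 1 log2 unit below the other b.End5 arrays, and without it the difference was 1.11 (adjusted p = 0.000848). Acss2, which makes acetyl-CoA from acetate, moved the other way. It was at 6.95, 7.26 and 7.34 in non-cultured, 6.33, 6.89 and 6.5 in single-cultured, 6.49, 6.30 and 6.14 in co-cultured and 6.38, 6.16 and 6.19 in b.End5 cells. Every other array lay below the non-cultured ones, by 0.61, 0.87 and 0.94 on average (adjusted p = 0.0161, 0.00156 and 0.000758). These falls were under 2-fold on the deposited scale and called in b.End5 with each other scaling (-1.07 to -1.02) and without non-cultured replicate 1 (-1.06) or b.End5 replicate 1 (adjusted p = 0.00185), and in co-cultured cells with median centring (-1.02).

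The elongases and desaturases divided by gene. Fads2, which starts the desaturation of essential fatty acids, was called in all 3 sources. It lay at 5.40, 4.77 and 3.95 in non-cultured cells, the last of these at or below the level of probe sets without a target. It was at 7.37, 7.68 and 7.90 in single-cultured, 7.23, 7.94 and 7.47 in co-cultured and 7.91, 7.01 and 7.73 in b.End5 cells, so that all 9 arrays lay far above. The differences were 2.94 (SE 0.35, adjusted p = 6.15e-05), 2.84 (adjusted p = 6.54e-05) and 2.84 (adjusted p = 4.5e-05), and the arrays of these 3 sources overlapped. Without the dim non-cultured array the Fads2 differences were 2.57, 2.47 and 2.47. Fads1, the next desaturase of the same route, lies beside it on chromosome 19 (Fads2 at 10062765 to 10101503, Fads1 at 10182877 to 10196874). Fads1 was at 11.52, 10.68 and 10.71 in non-cultured, 11.55, 10.59 and 11.79 in single-cultured, 11.21, 11.16 and 11.13 in co-cultured and 12.02, 12.07 and 12.53 in b.End5 cells. The primary sources overlapped and only b.End5 lay above them, by 1.24 over non-cultured cells (SE 0.30, adjusted p = 0.00663). Elovl6, which lengthens the product of Fasn, lay at 5.77, 6.43 and 6.18 in non-cultured, 6.97, 7.79 and 7.20 in single-cultured, 8.05, 7.71 and 7.69 in co-cultured and 8.15, 7.18 and 7.98 in b.End5 cells. All 3 sources lay above non-cultured cells, by 1.19 (SE 0.28, adjusted p = 0.00715), 1.69 (adjusted p = 0.000625) and 1.64 (adjusted p = 0.000604). Elovl5, an elongase of polyunsaturated fatty acids, stayed within -0.07 and 0.12 of non-cultured cells and did not pass. The stearoyl-CoA desaturases did not pass either. Scd1 differed by -0.70, 0.36 and 0.35 from non-cultured cells and was uneven in co-culture, at 8.43, 7.65 and 6.52. Scd2 differed by -0.44, -0.53 and 0.27. Lpin1, which makes diacylglycerol for lipid synthesis, was higher in b.End5 by 0.85 (SE 0.22, adjusted p = 0.00837), and its values were 7.40, 7.42 and 6.52 in non-cultured, 7.28, 7.66 and 7.31 in single-cultured, 7.04, 6.88 and 6.79 in co-cultured and 8.06, 7.94 and 7.88 in b.End5 cells.

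Between co-cultured and single-cultured cells, which by the labels differ in the glial cultures in the well, no gene of the 33 was called in either direction. Of all genes 0.901% were called higher and 0.289% lower, and without the 2-fold minimum 2.52% passed, again with none of the 33 among them. At an unadjusted p under 0.05, 11 of the 33 genes (33.3%) passed, against 14.0% of all genes. Of the 33 differences 26 were negative, and of the 16 sterol enzymes 14, with medians of -0.15 and -0.34 against -0.01 over all genes. Of all 15204 genes, 7952 had negative differences. The genes were read on the same arrays, so their signs are not separate observations. Some markers of division, fibroblasts and pericytes also differed between these sources, as given below. The lowest were Msmo1 (-0.61, SE 0.23, 95% interval -1.11 to -0.12, adjusted p = 0.238), Sqle (-0.59, -0.97 to -0.21, adjusted p = 0.131) and Tm7sf2 (-0.57, -0.97 to -0.17, adjusted p = 0.162). Nsdhl came nearest to the threshold (-0.51, SE 0.12, adjusted p = 0.0549). Elovl6 (0.50), Acaca (0.51) and Fasn (0.43) had positive differences and did not pass (adjusted p = 0.435 to 0.514). Scd1 (1.06, SE 0.41, adjusted p = 0.261) was called without co-cultured replicate 3 (1.57, adjusted p = 0.0328).

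**Figure D3:**
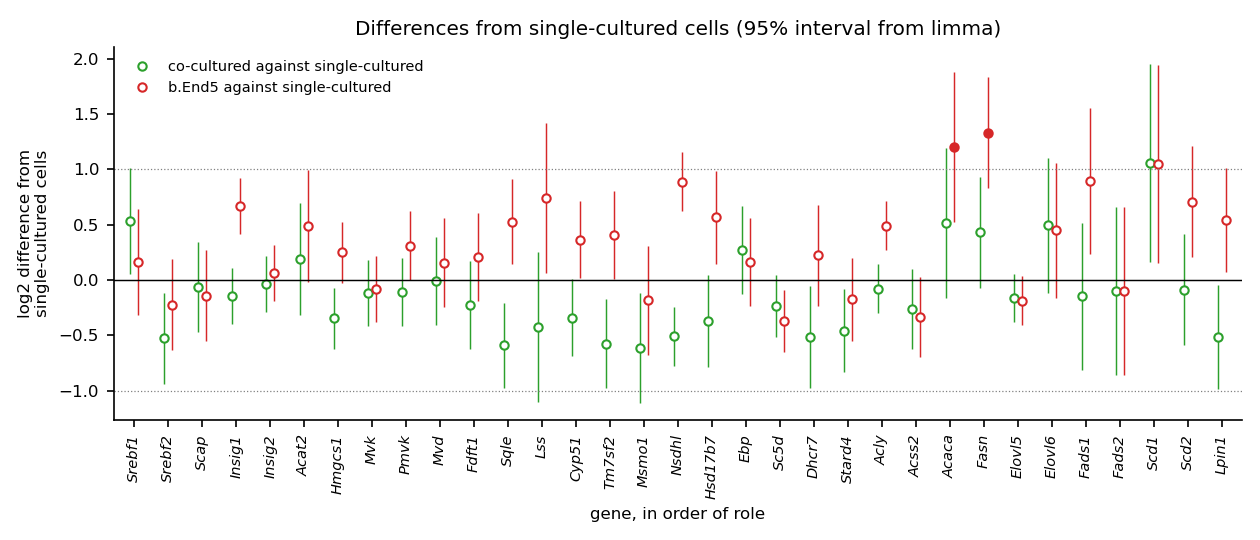
Log2 difference of each of the 33 genes from single-cultured cells (y axis) by gene in order of role (x axis), for co-cultured and b.End5 cells, with 3 arrays in each source. Points are limma estimates with their 95% intervals, filled points are called and dotted lines mark a 2-fold difference; 26 of the 33 co-culture points lie below 0, against 7952 of 15204 for all genes, and the filled points are Acaca (1.20) and Fasn (1.33) in b.End5.

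The line was also set against the primary cultures, where 2 fatty acid enzymes were called higher over single culture, and 3 sterol enzymes, a desaturase and Lpin1 over co-culture. Against single-cultured cells Acaca (1.20, SE 0.31, adjusted p = 0.0119) and Fasn (1.33, SE 0.23, adjusted p = 0.000937) were higher and none was lower. That is 6.1% of the 33 genes, no more than the background of 6.25% of all genes higher (7.82% lower). Without the minimum, 10 of the 33 (30.3%) passed, against 30.2%. Acaca lost its call when single-cultured replicate 1 (0.99) or b.End5 replicate 1 (0.92) was left out, and with the spread of the compared sources alone (adjusted p = 0.0664). Without b.End5 replicate 2 the count was 4, with Lss (1.15) and Scd1 (1.40) added. Against co-cultured cells Sqle (1.12, SE 0.17, adjusted p = 0.000531), Lss (1.16, adjusted p = 0.0145), Nsdhl (1.40, adjusted p = 5.28e-06), Fads1 (1.04, adjusted p = 0.022) and Lpin1 (1.06, adjusted p = 0.00324) were higher and none was lower. These are 15.2% of the 33 genes, against 5.10% of all genes higher and 7.96% lower. Without the minimum 15 (45.5%) passed, all of them higher, against 30.9% of all genes. For Lss the arrays overlapped, since b.End5 replicate 2 (9.18) lay below co-cultured replicate 1 (9.26). The count was 9 without b.End5 replicate 2, with Tm7sf2 (1.20), Hsd17b7 (1.16), Acaca (1.12) and Fasn (1.15) added, and 3 without co-cultured replicate 3, b.End5 replicate 1 or b.End5 replicate 3. Only Nsdhl kept its call against co-cultured cells under every alternative tried.

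The order of the sources was also read as 1 mean per array. The mean level of the 16 sterol enzymes was 8.75, 8.58 and 8.60 on the non-cultured, 9.17, 9.35 and 9.27 on the single-cultured, 9.04, 8.98 and 8.93 on the co-cultured and 9.69, 9.41 and 9.57 on the b.End5 arrays. On the deposited scale the sources did not overlap in this mean, in the order non-cultured, co-cultured, single-cultured and b.End5. The gaps were narrow, as between single-cultured replicate 2 (9.35) and b.End5 replicate 2 (9.41). Median centring moved the differences of co-cultured from non-cultured cells by -0.149. Housekeeping centring moved those of b.End5 from single-cultured cells by -0.153. The order was not recomputed under other scalings. For the 11 fatty acid and glycerolipid genes the mean level was 8.52, 8.45 and 8.29 on the non-cultured, 8.63, 8.86 and 8.80 on the single-cultured, 9.0, 8.91 and 8.69 on the co-cultured and 9.50, 8.96 and 9.48 on the b.End5 arrays. Here single-cultured and co-cultured arrays overlapped, and b.End5 replicate 2 lay below co-cultured replicate 1. On b.End5 replicate 2, none of the 11 fatty acid genes and 4 of the 16 sterol enzymes lay above their b.End5 mean.

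Markers of division and of other cells moved along with the sources, and their part in these differences was not tested. The log2 of the summed linear level of 8 cell cycle genes was 8.82 to 9.04 in non-cultured, 11.43 to 11.68 in single-cultured, 12.62 to 12.82 in co-cultured and 12.69 to 12.73 in b.End5 arrays. All 8 were called higher in co-cultured and in b.End5 cells, and 7 in single-cultured cells, against non-cultured ones. For this and the next lists, the background in single-cultured, co-cultured and b.End5 cells was 7.18%, 9.10% and 9.10% of all genes called higher. The shares called lower were 5.82%, 6.20% and 9.06%. The sum of 7 microglia and macrophage markers was 10.50 to 10.86 in non-cultured, 13.23 to 14.13 in single-cultured and 13.10 to 14.11 in co-cultured arrays, with 4 of 7 called higher in each culture. In the cultures most of that sum came from Lyz2, with means of 9.74, 13.23 and 13.06 in these sources. Cx3cr1 (4.80, 4.77 and 5.20) and Itgam (3.58, 3.70 and 3.93) were not called in either culture. In b.End5 the sum was 7.17 to 7.60, with Ptprc and Itgam (the latter also in non-cultured cells) at the level of probe sets without a target. Of the 7 members called in a culture, Sqle, Fdft1, Cyp51 and Fasn had higher means in b.End5 than in both cultures. The mean of Msmo1 in b.End5 (9.54) lay between those of single-cultured (9.72) and co-cultured cells (9.11). Elovl6 in b.End5 (7.77) likewise lay between single-cultured (7.32) and co-cultured cells (7.82). Fads2 was at 7.55 in b.End5, 7.65 in single-cultured and 7.55 in co-cultured cells. Whether any other cell type bears on these levels was not tested. Fibroblast markers (5 genes) summed to 8.22 to 9.05, 9.07 to 9.82, 10.79 to 13.13 and 7.12 to 7.63 in non-cultured, single-cultured, co-cultured and b.End5 arrays. Of the 5, 1 was called higher in single-cultured and 2 in co-cultured cells, and 3 were called lower in b.End5. The 2 in co-cultured cells were Col1a1 (mean 10.22, against 6.05 in non-cultured cells) and Col1a2 (11.35, against 7.42). Dcn (6.52, against 6.66) and Pdgfra (5.11, against 5.51) were no higher there, and Lum lay at the level without a target in every source. For the 8 pericyte and smooth muscle markers the ranges, in the same order of sources, were 12.27 to 12.81, 12.43 to 13.04, 13.02 to 13.79 and 8.60 to 9.90. Within that list single genes moved in opposite directions, since Rgs5 (-5.79), Vtn (-3.95) and Abcc9 (-2.76) fell and Acta2 (2.94) rose in single-cultured cells. In co-cultured cells 2 of the 8 fell and 2 rose, and in b.End5 6 fell. The sums of the 6 astrocyte markers lay between 10.98 and 12.35, nearly all of it from Gja1, whose means were 11.60 to 12.13. Slc1a2 fell in all 3 sources (-1.54, -1.60 and -1.37) and Aldoc in single-cultured (-1.12) and b.End5 cells (-1.68). The sums of the 7 oligodendrocyte markers lay between 8.80 and 9.77 over all sources, but in b.End5 single genes moved in opposite directions. There Mbp fell (-4.47) to the level of probe sets without a target, from a mean of 8.30 in non-cultured cells, and Cnp rose (1.03). Between co-cultured and single-cultured cells, 5 of 8 cell cycle, 2 of 5 fibroblast and 1 of 8 pericyte and smooth muscle markers were called higher. These are 62.5%, 40% and 12.5% of the lists, against 0.901% of all genes. No marker of the other lists was called in that comparison, and none of any list was lower.

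**Figure D4:**
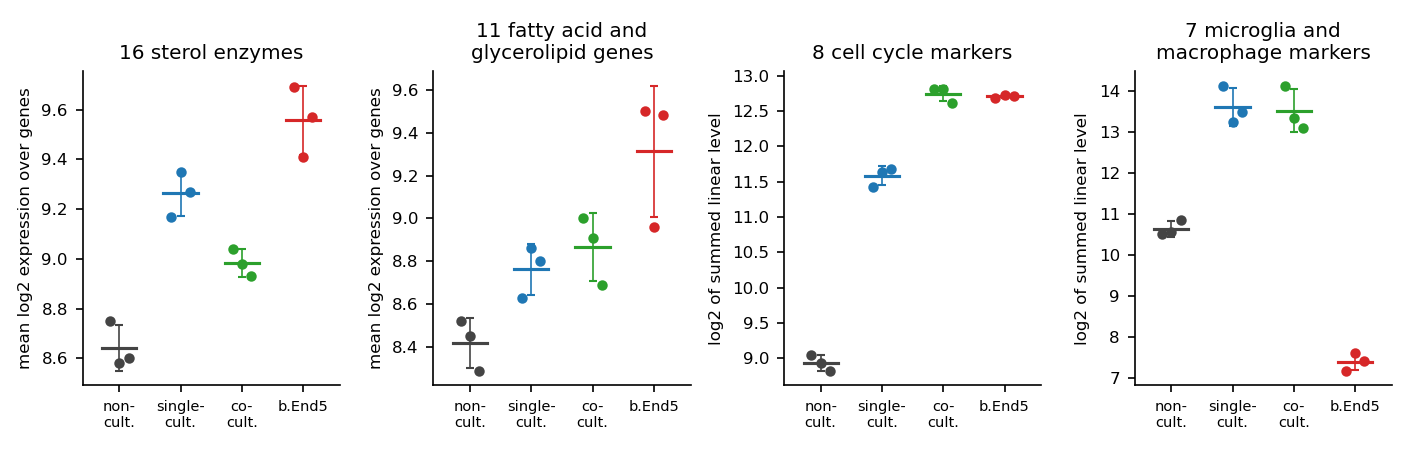
From left to right, the mean log2 level of the 16 sterol enzymes and of the 11 fatty acid and glycerolipid genes, and the log2 of the summed linear level of 8 cell cycle and of 7 microglia and macrophage markers (y axes, each with a range of its own), by source (x axis). Points are arrays, thick lines means and thin bars SD over 3 arrays; the sterol mean rises from 8.58 to 8.75 in non-cultured to 9.41 to 9.69 in b.End5 cells, while the microglia sum is lowest in b.End5 at 7.17 to 7.60.

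Genes of sterol uptake and storage were read beside synthesis. Among 14 genes of sterol uptake, storage and lysosomal export, 4 rose and 1 fell in single-cultured cells, 3 rose and 1 fell in co-cultured cells, and 3 rose and 2 fell in b.End5. The rises are 28.6%, 21.4% and 21.4% of the list, against 7.18%, 9.10% and 9.10% of all genes, and the falls 7.1%, 7.1% and 14.3%, against 5.82%, 6.20% and 9.06%. Vldlr, a lipoprotein receptor, lay at 3.57, 4.69 and 4.10 in non-cultured cells, above the level of probe sets without a target on 1 of the 3 arrays. It was at 6.85, 7.58 and 7.33 in single-cultured, 7.31, 7.42 and 7.65 in co-cultured and 10.88, 9.83 and 10.82 in b.End5 cells. Its differences were 3.14, 3.34 and 6.39 (SE 0.32, adjusted p = 2.13e-05, 1.09e-05 and 2.6e-08), sizes that this background limits. Soat1, which esterifies cholesterol for storage, rose by 2.35, 2.41 and 3.32, and Osbpl5, an oxysterol-binding protein, by 3.22, 2.46 and 2.19. Lrp8, another lipoprotein receptor, was lower in all 3, by 1.76, 2.54 and 2.57 (largest adjusted p = 3.48e-06). The HDL receptor Scarb1 was lower in b.End5 (-1.91, adjusted p = 0.000307).

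The other 14 genes of sterol synthesis and SREBP processing gave 1 rise in each comparison and no fall, Nus1 in single-cultured (1.13) and co-cultured cells (1.29) and Mbtps2 in b.End5 (1.01, adjusted p = 0.000355). At 7.1% of the list, the rises were no more than the share of all genes called higher. Mbtps2, a protease that releases SREBP, fell under 2-fold in b.End5 with each other scaling (0.88 to 0.93) and without non-cultured replicate 1 (0.91) or 2 (0.99) or b.End5 replicate 2 (0.88). Nus1 belongs to the dolichol branch of the pathway. Among 12 targets of LXR, the nuclear receptor that senses surplus sterol, and genes of sterol efflux, 1 fell in single-cultured, 1 in co-cultured and 4 in b.End5 cells, where 1 rose. The falls are 8.3%, 8.3% and 33.3% of the list, against 5.82%, 6.20% and 9.06% of all genes, so those in the cultures were near the background. Mylip, an LXR-induced ubiquitin ligase, fell in all 3, by 1.75, 1.23 and 1.69 (adjusted p = 0.000764, 0.00636 and 0.000629), or by 0.87 in co-cultured cells without co-cultured replicate 3. Abca1, the cholesterol exporter, did not pass in the cultures (-0.21 and -0.05) and fell by 2.85 in b.End5 (SE 0.64, adjusted p = 0.00385), at 8.61, 5.60 and 8.83 there against 10.67, 10.50 and 10.43 in non-cultured cells. Apoe fell by 3.44 in b.End5 (SE 0.29, adjusted p = 2.14e-06), from 9.11, 9.24 and 9.22 to 5.99, 5.84 and 5.43. Ch25h (-1.83, adjusted p = 0.0258) and Cyp7b1 (1.76, adjusted p = 0.0326), enzymes that make and break down oxysterols, were called in b.End5 too. Both rested on few arrays. Ch25h was at -0.99 without b.End5 replicate 2 and lost its call without non-cultured replicate 2 or 3 as well, and Cyp7b1 lost its call without any 1 of the non-cultured arrays or b.End5 replicate 1 or 3 (adjusted p = 0.0618 to 0.125), and with the replicate number as a block (adjusted p = 0.0566).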

How the data were processed

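The deposited values were log2 expression values made with RMA, which corrects background, normalises by quantiles and summarises probes, per the submitters' processing notes. For RMA's version and the probe-set definition, none is given in the sources used here. Scanner files were not used. Of 21625 probe sets, 64 were array controls, and 16537 of the 21561 RefSeq rows had 1 symbol in the RefSeq table of GRCm38.p6, 0 had several and 5024 had none. For the 987 genes with more than 1 probe set the brightest over the 12 arrays was kept. This concerned Insig2, whose other probe set lay lower (8.28 to 8.81), and Lpin1, whose probe sets held the same values. To set the level without a target, the 95th percentile over 27 bacterial control probe sets was taken. No gene was filtered out.

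Differences came from limma 3.58.1 under R 4.3.3, with lmFit and default eBayes. The 12 arrays entered a single model of 4 source means, which leaves 8 residual degrees of freedom, and p-values were adjusted over all genes of each of 6 comparisons. The model was tested on simulated data. SE is the moderated standard error. Python 3.11.15, pandas 2.3.3 and matplotlib 3.10.9 made tables and figures. Array number limits the precision. The members, lists and tests were chosen with earlier results of these data known. Every member is described, with all array values for those called against non-cultured cells. Of each further list, the called genes that rose most (up to 3) and fell most (up to 3) against non-cultured cells are named, plus Abca1 and Mylip. Some genes under this rule are not reported here.

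Replicate numbers in the labels were checked for pairing. After removal of the group means, same-numbered single-cultured and co-cultured arrays correlated at 0.227, 0.135 and 0.232 across genes, and in no other pair of sources did all 3 exceed 0.1. Arrays of different numbers were not compared, and the labels do not state a pairing, so none is established.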

Additional observations from a re-analysis of the deposited data

How the results depend on the processing

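The counts of called members, and the differences of members and of named genes of the further lists, were recomputed under 12 single-array omissions and 9 other alternatives. Calls of cell markers, counts of the further lists and means per array were not recomputed. With no minimum difference, the called genes of the 33 numbered 12 in single-cultured, 12 in co-cultured and 19 in b.End5 cells against non-cultured ones, and 10 and 15 in b.End5 against single-cultured and co-cultured cells. Of all genes 28.2%, 34.4%, 38.0%, 30.2% and 30.9% passed in these comparisons. With housekeeping centring, 3 were called in b.End5 against co-cultured cells. Leaving out 1 array gave 0 to 1 calls for co-cultured against single-cultured cells, 1 to 4 for b.End5 against single-cultured cells and 3 to 9 for b.End5 against co-cultured cells. Against non-cultured cells it gave 4 to 7 in single-cultured, 6 in co-cultured in every case and 10 to 14 in b.End5 cells. With the replicate number as a block shared by all 4 sources, the counts were 6, 6, 12, 0, 2 and 5, as without it, and no call of a member changed. Such a block does not represent a pairing of single-cultured and co-cultured arrays alone, so the effect of that pairing was not tested. Over single members and the alternatives other than no minimum difference, 3904 results kept their side of the threshold, 24 gained a call, 32 lost one and 0 reversed. For the named genes of the further lists, alternatives added after seeing the data gave 2807, 24, 43 and 0. Median centring moved the median of all genes by -0.149 in co-cultured against non-cultured cells, and housekeeping centring (7 genes) by -0.130 in b.End5 against non-cultured, -0.153 against single-cultured and -0.113 against co-cultured cells. The members moved by the same amounts. The cause of these changes was not tested. Genes near the level without a target, such as Fads2 and Vldlr in non-cultured cells, have differences that the array's background limits.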

Other observations

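Genes that carry and activate fatty acids moved in both directions. Of 26 genes of fatty acid activation and glycerolipid synthesis, 6 rose and 3 fell in single-cultured, 6 rose and 5 fell in co-cultured and 3 rose and 5 fell in b.End5 cells against non-cultured ones, by the same limma test. The rises are 23.1%, 23.1% and 11.5% of the list, against 7.18%, 9.10% and 9.10% of all genes, and the falls 11.5%, 19.2% and 19.2%, against 5.82%, 6.20% and 9.06%, so the rises in b.End5 were near the background. Fabp4, a fatty acid binding protein, rose by 2.66, 3.38 and 4.74 (SE 0.59). It was uneven in b.End5, at 11.41, 8.69 and 11.08, against 5.03, 6.01 and 5.92 in non-cultured cells. Me1, the malic enzyme that makes NADPH for fatty acid synthesis, rose by 3.09, 1.98 and 1.82 (SE 0.22). It lay lower in co-cultured (7.87, 7.83 and 7.70) than in single-cultured cells (8.70, 9.37 and 8.65), with no overlap. That difference was called (-1.11, adjusted p = 0.0236 from limma) and lost its call without single-cultured replicate 1 or 2 or any 1 of the co-cultured arrays (adjusted p = 0.0528 to 0.0736). Cd36, a fatty acid translocase, was higher by 2.66 and 2.61 in the cultures, and in b.End5 it lay at the level of probe sets without a target, at least 1.79-fold lower than in non-cultured cells. Elovl7 (-4.03), the triglyceride lipase Pnpla2 (-1.93) and the acyl-CoA synthetase Acsl1 (-1.56) were lower in b.End5.

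Of 19 genes of fatty acid oxidation, none rose and 3 fell in each of the 3 sources against non-cultured cells, 15.8% of the list in each. Of all genes, 5.82%, 6.20% and 9.06% were called lower in single-cultured, co-cultured and b.End5 cells, and 7.18%, 9.10% and 9.10% higher. Pdk4, the kinase that turns off pyruvate dehydrogenase, lay at 10.23, 10.62 and 9.91 in non-cultured and at 4.49, 4.62 and 4.34 in b.End5 cells, a difference of -5.77 (SE 0.32, limma adjusted p = 5.97e-08). In single-cultured (-1.13) and co-cultured cells (-1.24) it fell less, and the call in single-cultured cells was lost when single-cultured replicate 1, non-cultured replicate 1 or non-cultured replicate 2 was left out. Acaa2, the last enzyme of the oxidation spiral, fell by 1.43 and 1.28 in the cultures. Ppargc1a, a coactivator of mitochondrial genes, lay at the level without a target in b.End5, at least 1.82-fold lower than in non-cultured cells.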
